A study of Mus musculus with 60 samples.

Results

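The ANH and NS libraries of a ribosome pulldown from mouse medial prefrontal cortex (mPFC) were compared. They were 12 of the 60 RNA-seq libraries of the series, 6 labelled ANH and 6 labelled NS, and were taken by their group label and fraction. Of 55414 genes in the deposited table, 16670 passed a filter on low counts and were tested. All mice were DBA2/J, an inbred strain, and expressed GFP-L10a, a ribosomal protein tagged with green fluorescent protein, in the ANH and in the NS group alike. The series describes social defeat, repeated attack by an aggressor mouse, over 5 days. The labels neither spell out the names ANH and NS nor say which groups were defeated, and they give no age, sex, promoter or delivery route for the tag. In the pulldown (IP), tagged ribosomes were captured with an anti-GFP antibody, and the labels call these samples projectors to the aPVT. The Input samples, 6 ANH and 6 NS, were bulk mPFC with no antibody. Pulldown libraries labelled RES, SA and SA:ANH, 6 each, served for further comparisons.

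Tagged ribosomes carry the messenger RNA that a cell is translating, so a pulldown reads the transcripts of tagged cells within a mixed tissue. Neurons of the prefrontal cortex that project to the thalamus lie mostly in the deep layers, where layer 5 extratelencephalic cells carry genes such as Bcl11b and Fezf2 and layer 6 corticothalamic cells carry others. Oligodendrocytes wrap axons in myelin, a membrane rich in a few abundant proteins, and their transcripts are frequent in any extract of adult cortex. Interneurons, which release GABA, make the peptides somatostatin and neuropeptide Y.

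Library totals were 19078928 to 24562708 counts in ANH IP and 19208056 to 26054339 in NS IP. Whether replicates are separate animals is not given in the labels, so p-values measure only library-to-library spread, which may be technical. The share of counts on mitochondrially encoded genes was 0.0240 ± 0.00385% in ANH IP and 0.0202 ± 0.00247% in NS IP (SD, n = 6 each). Levels are given in CPM, the usual unit of counts relative to library size, here with edgeR's TMM scaling, as the lowest, the median and the highest of 6 libraries, or as mean ± SD. Differences are log2 fold changes of ANH minus NS ± SE from edgeR's quasi-likelihood test, with p-values adjusted by Benjamini-Hochberg over all genes tested, and a gene was called at an adjusted p under 0.05. Rpl10a, the gene of the tagged protein, lay at 356, 357 and 389 CPM in ANH IP and 343, 371 and 378 CPM in NS IP, with overlapping groups (-0.01 ± 0.05, adjusted p = 0.972). In ANH Input it averaged 94.5 ± 7.72 CPM and in NS Input 78.8 ± 5.54 CPM. Excitatory neuron genes summed to a median of 10940 CPM in ANH IP and 11080 CPM in NS IP, against 7121 CPM in ANH Input and 7146 CPM in NS Input.

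Between ANH and NS pulldowns 1233 of 16670 genes differed, which is 7.4% of those tested. In ANH 504 genes were higher (3.02%) and 729 were lower (4.37%), and the median log2 fold change over all genes was -0.0011. Most differences were small. Only 55 of the higher and 33 of the lower genes reached 2-fold, and the called genes had a median absolute log2 fold change of 0.32. The 6 ANH libraries all lay above the 6 NS libraries for 323 genes (1.94%) and all below for 348 genes (2.09%). The genes that rose most in ANH were led by myelin transcripts, and the lists with the highest shares of lower genes were those of layer 5 extratelencephalic neurons and of the nuclear-encoded respiratory chain.

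**Figure D1:**
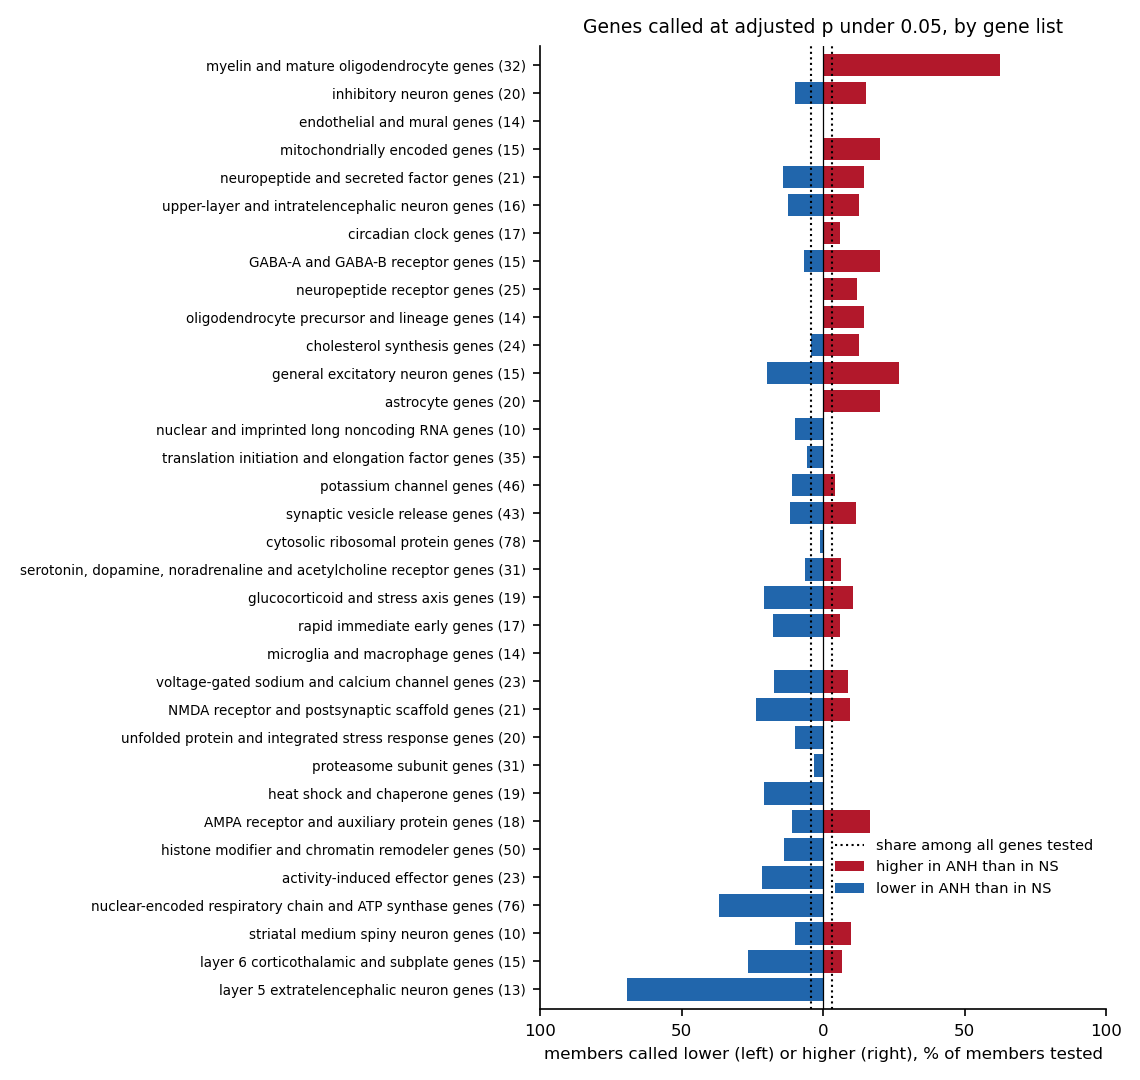
Shares of members called higher (red, right) or lower (blue, left) in ANH than in NS pulldown, for gene lists with at least 10 members tested, ordered by median log2 fold change. Numbers in parentheses are members tested and dotted lines mark the shares over all 16670 genes, 3.02% higher and 4.37% lower. The myelin list (20 of 32 higher) and the layer 5 list (9 of 13 lower) stand at the 2 ends.

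Myelin and mature oligodendrocyte genes were higher in ANH pulldown. Of 33 genes listed, 32 were in the table and all 32 were tested. In all 20 rose, 0 fell and 12 did not pass, against 3.02% higher over all genes, and the list's median log2 fold change was 1.30. Between 17 and 24 members rose under each alternative processing and with each of the 12 libraries left out in turn. The members that did not pass averaged under 10 CPM in ANH, except Gsn, which averaged 20.7 ± 4.22 CPM in ANH and 16.5 ± 3.31 CPM in NS. The list summed to 1110, 1147 and 1174 CPM in ANH IP and 531.3, 571.1 and 590.4 CPM in NS IP.

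Trf encodes transferrin, which carries iron and is made by oligodendrocytes, and showed the largest rise among the genes described (ENSMUSG00000032554.16, chromosome 9, 103081200 to 103107643). Its level was 40.2, 45.1 and 49.6 CPM in ANH and 9.69, 11.3 and 14.8 CPM in NS (1.94 ± 0.21, adjusted p = 6.61e-08). Mobp, a cytoplasmic protein of compact myelin, was at 48.8, 54.6 and 65 CPM in ANH and 15.9, 17.2 and 22.1 CPM in NS (1.62 ± 0.12, adjusted p = 1.79e-11). None of the ANH libraries overlapped the NS libraries for either gene. Mag, an adhesion protein on the inner face of the sheath towards the axon, was a low gene, with 10.3, 15.5 and 19.7 CPM in ANH and 3.08, 4.77 and 7.56 CPM in NS, and rose by 1.54 ± 0.23 (adjusted p = 1.49e-05). Car2, a carbonic anhydrase of oligodendrocytes, rose by 1.64 ± 0.14, Plekhb1 by 1.37 ± 0.13, and Apod, a lipid carrier, by 1.22 ± 0.17. Mbp, the basic protein that holds the myelin layers together, had 419, 430.3 and 444 CPM in ANH and 175, 192 and 209 CPM in NS and a smaller difference of 1.15 ± 0.05 (adjusted p = 7.28e-18).

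Promoters of genes that rose together are shown for Mag and Mobp, from RefSeq's GRCm38.p6 sequence, as the 250 bases before a transcript start, 5′ to 3′. Capitals mark matches, on either strand, to ACAAAG, the core bound by SOX factors such as Sox10, and to CTGGNAC. The latter is a loose form, with any base at N, of the core of the myelin regulator Myrf. Mag is shown for the first of its 3 listed starts, on the minus strand at chr7:30914864-30915113, and Mobp on the plus strand at chr9:120149492-120149741.
Mag: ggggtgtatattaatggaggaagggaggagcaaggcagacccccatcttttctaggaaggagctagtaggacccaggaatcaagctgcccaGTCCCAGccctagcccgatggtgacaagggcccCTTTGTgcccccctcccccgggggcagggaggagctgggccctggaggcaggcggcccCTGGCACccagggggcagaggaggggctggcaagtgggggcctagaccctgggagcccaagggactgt
Mobp: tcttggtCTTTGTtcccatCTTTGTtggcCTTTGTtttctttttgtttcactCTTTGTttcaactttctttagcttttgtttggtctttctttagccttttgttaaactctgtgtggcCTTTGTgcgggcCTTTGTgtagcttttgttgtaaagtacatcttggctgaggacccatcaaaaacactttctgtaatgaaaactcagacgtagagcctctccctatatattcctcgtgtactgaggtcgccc
The Mag window held 1 match to ACAAAG, beginning at base -126 from the start, and 2 to CTGGNAC, at -159 and -68, while the Mobp window held 6 to ACAAAG. The window of the second Mag start overlaps this one and holds the same 3 matches, and that of the third start holds 0. In the list 21 of 33 genes had an entry, with 32 windows in all. Of these windows 10 held ACAAAG and 11 held CTGGNAC, beside 16.5% and 16.1% of 32851 windows of the same length. A match is a run of letters and not a measured binding site. Trf had no entry.

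**Figure D2:**
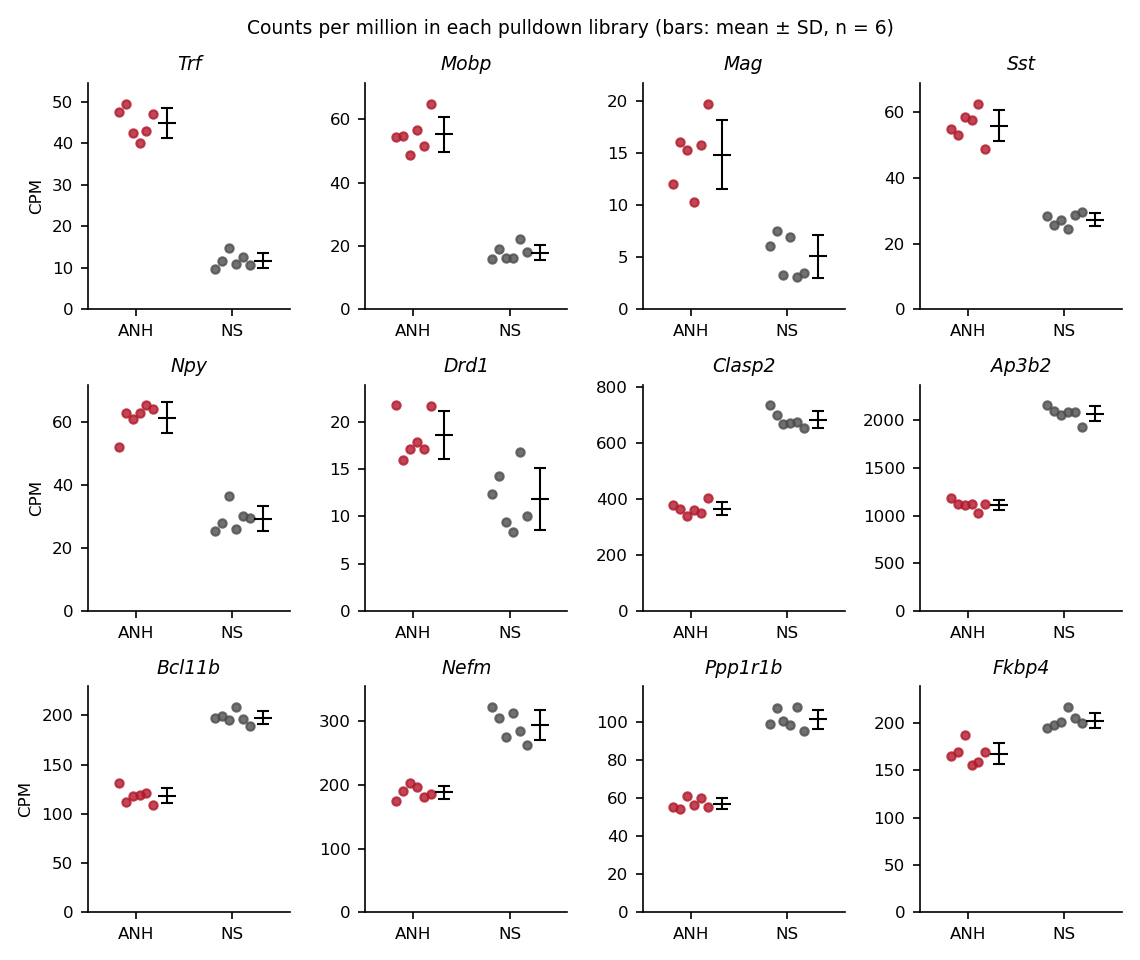
CPM of 12 genes in each of the 6 ANH (red) and 6 NS (grey) pulldown libraries, with mean ± SD. ANH libraries lie above all NS libraries for Trf, Mobp, Mag, Sst and Npy and below all of them for Clasp2, Ap3b2, Bcl11b, Nefm, Ppp1r1b and Fkbp4, and the groups overlap for Drd1.

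Bulk tissue showed the same direction for myelin. In Input, where 2.62% of 18170 genes differed between ANH and NS, 25 of 32 members were higher and 0 lower, with a median of 0.65. The list summed to 6862, 6997 and 7101 CPM in ANH Input and 4368, 4513 and 4612 CPM in NS Input. The sums of red cell genes and of meningeal and fibroblast genes also differed between the groups in Input. Red cell genes were higher for 5 of 5 in ANH Input (median 0.79) and summed to 1497, 1539 and 1582 CPM in ANH Input and 867.1, 907.4 and 940.3 CPM in NS Input. Meningeal and fibroblast genes summed to 516.0, 524.5 and 526.8 CPM in ANH Input and 739.4, 780.4 and 802.0 CPM in NS Input. Of 12 members 0 were higher, 1 was lower (Ptgds, described below) and 11 did not pass. How much Ptgds alone carried this sum was not tested. The part of red cell and meningeal genes in the Input differences was not tested. Trf averaged 439 ± 20.2 CPM in ANH Input and 266 ± 11.7 CPM in NS Input, a difference of 0.72 ± 0.04 (adjusted p = 7.47e-18). The difference was larger in the pulldown than in Input for 14 members and smaller for 0, where 3.62% of 18937 genes differed between fractions. For Trf the IP difference exceeded the Input difference by 1.22 ± 0.17 (adjusted p = 7.4e-07), and for Mbp by 0.42 ± 0.05 (adjusted p = 1.16e-07). Summed over the list, medians were 1147 CPM in ANH IP and 571.1 CPM in NS IP, below the sums of both Input groups. Whether the myelin RNA in the pulldown came from tagged cells was not tested. In bulk samples and in a pulldown of pooled cells, fewer cells of a type and less RNA per cell cannot be told apart. Myelin transcripts of oligodendrocytes thus moved with the group in both fractions, and their part in the other pulldown differences was not tested.

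The other pulldown groups placed ANH between RES and the rest for myelin. Trf averaged 45 ± 3.62 CPM in ANH, 80.3 ± 9.4 in RES, 2.47 ± 1.36 in SA, 3.92 ± 2.13 in SA:ANH and 11.7 ± 1.81 in NS. ANH was below RES (-0.84 ± 0.20, adjusted p = 0.0055) and above SA (4.20 ± 0.25, adjusted p = 4.3e-15) and SA:ANH (3.52 ± 0.24, adjusted p = 3.18e-13). Over the list, 0 members were higher and 11 lower in ANH than in RES, where 3.78% of all genes were higher and 5.43% lower. Against SA 21 members were higher in ANH (10.2% of all genes were higher) and against SA:ANH 24 (7.03%), with 0 lower in both, while 12.8% and 10.8% of all genes were lower. Summed over the list, ANH IP lay at 1110 to 1174 CPM and RES IP at 1552 to 1676 CPM.

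**Figure D3:**
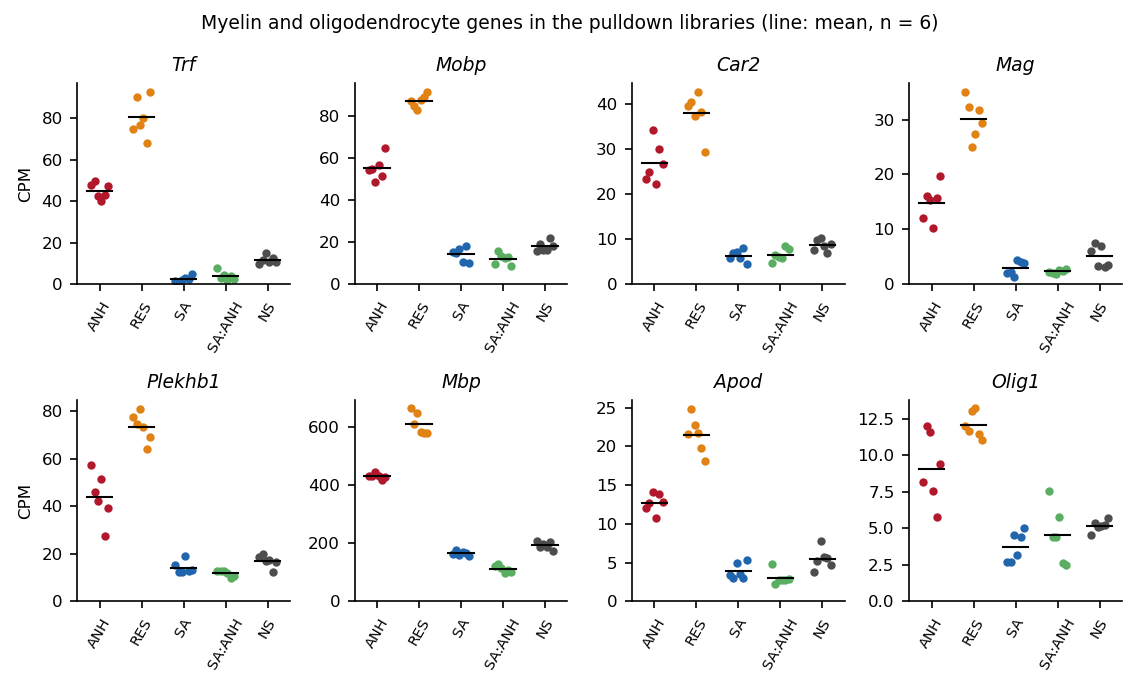
CPM of 8 myelin and oligodendrocyte genes in the 5 pulldown groups, 6 libraries each, with the mean as a line. ANH lies below RES and above SA, SA:ANH and NS in the means of all 8 genes.

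Markers of other non-neuronal cells were as follows, where 3.02% of all genes rose and 4.37% fell. Of 20 astrocyte genes 4 rose and 0 fell in ANH pulldown (median 0.02), and 2 rose without ANH replicate 2 or without NS replicate 1, 3 or 6. Gfap, the intermediate filament of astrocytes, was low, with 9.33, 11.6 and 14.1 CPM in ANH and 2.65, 4.81 and 7.02 CPM in NS (1.33 ± 0.31, adjusted p = 0.00552). In Input it was lower in ANH (-0.26 ± 0.05, adjusted p = 0.00169), and the fractions differed by 1.61 ± 0.21 (adjusted p = 3.07e-07). Apoe, the lipid carrier of astrocytes and microglia, had 144, 162 and 191 CPM in ANH and 114, 121 and 131 CPM in NS (0.41 ± 0.06, adjusted p = 7.06e-06). Astrocyte genes summed to 978.3, 1013 and 1082 CPM in ANH IP and 913.5, 932.2 and 945.0 CPM in NS IP. None of the ANH libraries overlapped the NS libraries in that sum.

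Olig1, a transcription factor of the oligodendrocyte lineage, rose by 0.81 ± 0.21 (adjusted p = 0.0127), 1 of 2 members called of 14 tested for precursors, where 3.02% of all genes rose. Ptgds, the prostaglandin D synthase of meninges and oligodendrocytes, had 12.1, 14.5 and 18.4 CPM in ANH and 4.64, 8.19 and 11.5 CPM in NS (0.80 ± 0.18, adjusted p = 0.003), yet in Input it was lower in ANH (-0.66 ± 0.03, adjusted p = 8.99e-18). It was the 1 gene called of 8 tested on the meningeal and fibroblast list (median 0.44), whose sum was 25.6, 34.8 and 40.4 CPM in ANH IP and 19.1, 22.4 and 26.6 CPM in NS IP, with overlap, the reverse of the order in Input. Of microglial and macrophage genes 0 of 14 tested were called, and of endothelial and mural genes 0 of 14, by edgeR's test. At an unadjusted p under 0.05 there were 2 microglial genes and 1 endothelial or mural gene, where 3311 of all 16670 genes passed. DESeq2 called 0 of either list, beside 1606 of all genes. With limma voom 1 microglial gene and 0 endothelial or mural genes were called, beside 1473 of all genes. Microglial genes summed to 32.2, 39.6 and 48.1 CPM in ANH IP and 34.4, 37.1 and 48.4 CPM in NS IP, with Mrc1 at 0 in both groups and Fcrls at 0 in NS. Endothelial and mural genes summed to 42.7, 55.1 and 61.6 CPM in ANH IP and 44.8, 49.1 and 58.1 CPM in NS IP. Red cell genes rose for 3 of 5 members and summed to 23.2, 25.6 and 27.3 CPM in ANH IP and 14.4, 18.0 and 23.2 CPM in NS IP. That count fell to 0 without ANH replicate 5 and to 1 without NS replicate 1, 2, 5 or 6.

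Layer 5 extratelencephalic markers were lower in ANH pulldown. Of 16 genes listed, 15 were in the table and 13 were tested, of which 0 rose, 9 fell and 4 did not pass (4.37% of all genes fell). The list's median was -0.40, and 8 to 10 members fell under every alternative and every library left out. Bcl11b, the transcription factor also called Ctip2 that specifies subcerebral projection neurons, had 109, 119 and 131 CPM in ANH and 189, 197 and 209 CPM in NS (-0.74 ± 0.07, adjusted p = 1.72e-09; ENSMUSG00000048251.16, chromosome 12, 107876662 to 107969861). Nefm, the medium neurofilament of large axons, had 175, 188 and 202 CPM in ANH and 262, 294 and 322 CPM in NS (-0.64 ± 0.06, adjusted p = 3.36e-10). Neither gene's groups overlapped. Crym, a thyroid hormone binding protein of deep layers, fell to 245, 262 and 285 CPM in ANH, against 325, 359 and 377 CPM in NS (-0.44 ± 0.04). Pou3f1, a POU transcription factor (-0.48 ± 0.06), and Nefl, the light neurofilament (-0.29 ± 0.03), also fell. The transcription factor Fezf2 averaged 139 ± 11.5 CPM in ANH and 169.6 ± 6.76 CPM in NS (-0.28 ± 0.05, adjusted p = 0.000179), and it was chosen after its values were seen.

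Summed over the list, layer 5 genes lay at 1795, 1855 and 1861 CPM in ANH IP and 2322, 2413 and 2460 CPM in NS IP. In Input the sums overlapped, at 1321, 1404 and 1419 CPM in ANH and 1357, 1390 and 1416 CPM in NS. In Input 1 of 15 members, Nefm, was lower (1.05% of all genes were lower). The fall was larger in the pulldown for 9 of 15 members, where 1.85% of 18937 genes had a lower difference in the pulldown. The IP difference minus the Input difference was -0.51 ± 0.11 for Bcl11b (adjusted p = 0.0016) and -0.46 ± 0.07 for Nefm (adjusted p = 1.84e-05). Against the other groups, ANH layer 5 genes were lower than in RES for 6 of 13 members and higher for 1, lower than in SA for 9, and higher than in SA:ANH for 8 with 0 lower. Over all genes 5.43% were lower and 3.78% higher than in RES, 12.8% lower than in SA and 7.03% higher than in SA:ANH. Bcl11b averaged 118 ± 7.75 CPM in ANH, 169.7 ± 27.1 in RES, 162 ± 8.33 in SA, 90.2 ± 7.71 in SA:ANH and 198 ± 6.45 in NS.

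Of 15 layer 6 and subplate genes tested, 1 rose and 4 fell (3.02% of all genes rose and 4.37% fell). Besides Crym, which is on both lists, Hs3st4, a heparan sulfate sulfotransferase, had 17.2, 23.1 and 25.7 CPM in ANH and 26.6, 31.4 and 34.2 CPM in NS (-0.45 ± 0.09, adjusted p = 0.000886), and Nr4a2, a nuclear receptor of subplate cells that is also induced by activity, had 12.5, 15.1 and 18.4 CPM in ANH and 19.9, 25 and 31.5 CPM in NS (-0.71 ± 0.16, adjusted p = 0.00453). The list summed to 399.3, 418.3 and 431.1 CPM in ANH IP and 479.7, 537.8 and 558.8 CPM in NS IP. In Input the order of these sums was the opposite, at 747.5, 752.4 and 764.5 CPM in ANH and 671.3, 689.6 and 697.1 CPM in NS. Of 16 upper-layer genes 2 were higher and 2 lower, beside 3.02% and 4.37% of all genes, and 1 was higher without ANH replicate 6. Their sum was 1123, 1142 and 1169 CPM in ANH IP and 1190, 1216 and 1246 CPM in NS IP, with ANH wholly below NS, while the list's median log2 fold change was 0.15. Of general excitatory genes 4 of 15 rose and 3 fell, beside the same shares over all genes, and the list's median was 0.03. Their sums overlapped, at 10640 to 11320 CPM in ANH IP and 10890 to 11660 CPM in NS IP. Among the 3 genes that fell was Camk2b, the beta subunit of a calcium-dependent kinase. It had 967, 1014 and 1020.4 CPM in ANH and 1095, 1138 and 1238 CPM in NS (-0.21 ± 0.04).

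**Figure D4:**
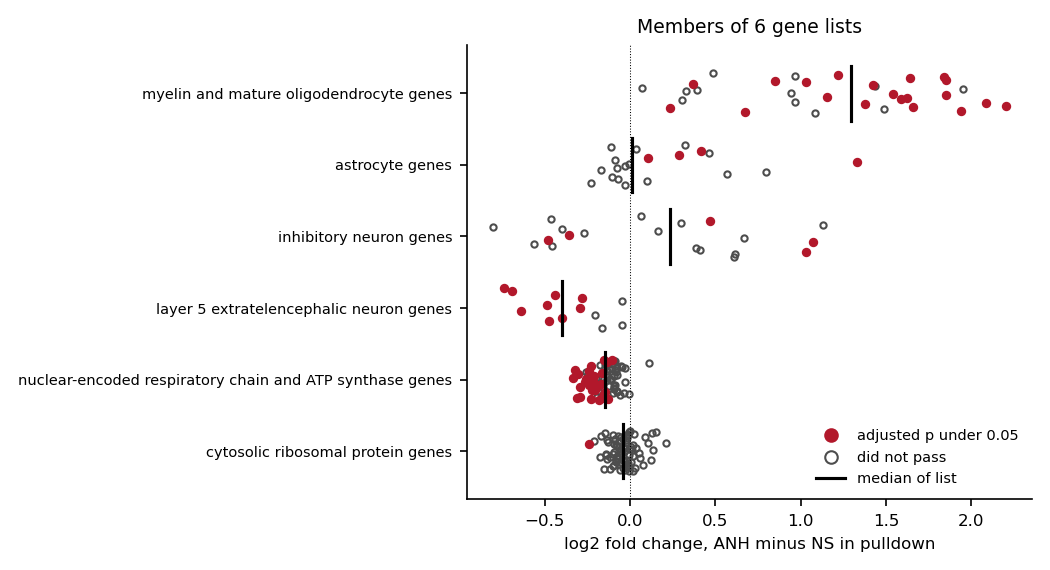
Log2 fold change of ANH minus NS in pulldown for each tested member of 6 gene lists, filled where the adjusted p was under 0.05, with the list's median as a bar. Myelin members spread to the right of 0 (median 1.30), layer 5 members to the left (median -0.40), and 28 of 76 respiratory chain members were called lower within a narrow range.

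Interneuron genes split. Sst, the peptide somatostatin, had 48.7, 56.1 and 62.5 CPM in ANH pulldown and 24.5, 27.8 and 29.5 CPM in NS pulldown (1.03 ± 0.07, adjusted p = 2.52e-12; ENSMUSG00000004366.5, chromosome 16, 23708323 to 23709708). Npy, neuropeptide Y, had 51.8, 62.9 and 65.2 CPM in ANH and 25.4, 28.7 and 36.3 CPM in NS (1.07 ± 0.09, adjusted p = 3.41e-10; ENSMUSG00000029819.7, chromosome 6, 49799690 to 49806487). Every ANH library lay above every NS library for both peptides. In Input both were slightly lower in ANH, with -0.14 ± 0.04 for Sst (adjusted p = 0.0209) and -0.18 ± 0.04 for Npy (adjusted p = 0.00291). The fractions differed by 1.19 ± 0.07 for Sst (adjusted p = 1.32e-19) and by 1.26 ± 0.09 for Npy (adjusted p = 1.26e-15). Sst averaged 486 ± 16.7 CPM in ANH Input and 536 ± 20.5 CPM in NS Input, far above its pulldown levels.

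The windows of 250 bases before the start of each peptide gene, from RefSeq's GRCm38.p6, are shown because Sst and Npy moved together. Sst lies on the minus strand at chr16:23890845-23891094 and Npy on the plus strand at chr6:49822460-49822709. Capitals mark TGACGTCA, the cyclic AMP response element bound by CREB, which reads the same on both strands.
Sst: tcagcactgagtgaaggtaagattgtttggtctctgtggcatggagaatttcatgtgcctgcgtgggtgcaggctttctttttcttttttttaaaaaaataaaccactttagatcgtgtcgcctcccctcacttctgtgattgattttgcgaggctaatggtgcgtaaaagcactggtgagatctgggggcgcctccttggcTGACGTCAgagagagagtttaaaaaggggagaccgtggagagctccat
Npy: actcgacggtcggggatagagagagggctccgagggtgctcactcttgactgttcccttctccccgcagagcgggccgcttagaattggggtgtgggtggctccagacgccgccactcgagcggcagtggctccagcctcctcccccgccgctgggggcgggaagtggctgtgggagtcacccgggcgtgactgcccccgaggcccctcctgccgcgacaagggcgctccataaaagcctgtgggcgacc
The Sst window held 1 match, at base -48 from the start, and these letters were not in the Npy window. Of 32851 windows of this length 1.55% held a match.

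Of 20 interneuron genes tested, 3 rose, 2 fell and 15 did not pass (3.02% of all genes rose and 4.37% fell). The third to rise was Cnr1, the cannabinoid receptor, with 63.5, 69.2 and 80.3 CPM in ANH and 45.2, 50.5 and 55.6 CPM in NS (0.47 ± 0.09, adjusted p = 0.000852). Lamp5, a membrane protein of neurogliaform and upper-layer cells, fell to 291, 310.0 and 322 CPM in ANH, against 379.9, 399.8 and 407 CPM in NS (-0.36 ± 0.03, adjusted p = 3.46e-09), and Nos1, the neuronal nitric oxide synthase, to 63.3, 71.4 and 73.8 CPM in ANH, against 87.4, 96.4 and 106 CPM in NS (-0.48 ± 0.08, adjusted p = 8.44e-05). The GABA-synthesizing enzymes, chosen after their values were seen, did not pass. Gad1 averaged 18.1 ± 4.5 CPM in ANH and 16.1 ± 3.94 CPM in NS (0.16 ± 0.20, adjusted p = 0.728), and Gad2 15 ± 2.06 CPM in ANH and 18.1 ± 2.56 CPM in NS (-0.27 ± 0.15, adjusted p = 0.319). Over the whole list ANH summed to 630.1, 642.6 and 658.4 CPM and NS to 663.3, 671.3 and 705.0 CPM, so the sum lay lower in ANH while both peptides lay higher. Lamp5 made up a large part of these sums, with medians of 310.0 CPM in ANH and 399.8 CPM in NS. The list's median log2 fold change was 0.23, the opposite direction to the sum. Between groups, Sst averaged 55.8 ± 4.78 CPM in ANH, 76.9 ± 5.53 in RES, 14.6 ± 1.46 in SA, 37.4 ± 2.39 in SA:ANH and 27.3 ± 1.94 in NS, and ANH differed from RES, SA and SA:ANH alike (-0.46, 1.94 and 0.58 against RES, SA and SA:ANH, the least strong against RES with adjusted p = 3.39e-05). Npy was highest in ANH, above RES by 0.49 ± 0.09 (adjusted p = 0.00036) and above SA and SA:ANH by 0.96 and 0.61.

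Of 10 striatal medium spiny neuron genes tested 1 rose, 1 fell and 8 did not pass (3.02% of all genes rose and 4.37% fell). Their sum was 238.7, 250.2 and 265.6 CPM in ANH IP and 289.0, 303.9 and 321.3 CPM in NS IP, with ANH wholly below NS. How much single genes carried this sum was not tested. In Input the sums overlapped, at 293.7, 314.4 and 340.2 CPM in ANH and 314.5, 348.7 and 355.8 CPM in NS. Of 31 serotonin, dopamine, noradrenaline and acetylcholine receptor genes 2 rose and 2 fell, beside the same shares over all genes. Ppp1r1b, known as DARPP-32, a phosphatase inhibitor controlled by dopamine receptors, had 54.4, 56 and 61.1 CPM in ANH pulldown and 95.4, 99.9 and 108 CPM in NS pulldown (-0.83 ± 0.06, adjusted p = 1.79e-11). Drd1, the D1 dopamine receptor, had 15.9, 17.5 and 21.8 CPM in ANH and 8.3, 11.2 and 16.8 CPM in NS, with overlapping groups (0.65 ± 0.17, adjusted p = 0.011). Ppp1r1b barely differed in Input (-0.08 ± 0.05, adjusted p = 0.43), and the fractions differed by -0.74 ± 0.08 (adjusted p = 2.39e-10). It was lower in ANH than in RES (-0.50 ± 0.06) and stood at -0.11 and 0.01 against SA and SA:ANH, which did not pass.

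Outside the lists, 2 transcripts abundant in the pulldown were lower in ANH with little spread. Ap3b2, part of the AP-3 adaptor that forms vesicles in neurons, had 1024, 1121 and 1185 CPM in ANH and 1928, 2093 and 2161 CPM in NS (-0.90 ± 0.04, adjusted p = 2.5e-18; ENSMUSG00000062444.16, chromosome 7, 81110147 to 81143673). Clasp2, a protein of microtubule plus ends, had 338, 362 and 402 CPM in ANH and 653, 673 and 735 CPM in NS (-0.90 ± 0.04, adjusted p = 1.14e-17). ANH lay below every NS library for both genes, and each stood far higher in the pulldown than in Input in both groups. In Input Ap3b2 averaged 222 ± 9.12 CPM in ANH and 214 ± 5.62 CPM in NS, and Clasp2 109 ± 5.18 CPM in ANH and 100.4 ± 9.66 CPM in NS. For Ap3b2 the fractions differed by -0.94 ± 0.06 (adjusted p = 2.69e-19) and for Clasp2 by -1.02 ± 0.08 (adjusted p = 1.44e-14). Both were also lower in ANH than in RES, SA and SA:ANH. Ap3b2 averaged 1114 ± 51.9 CPM in ANH, 2445 ± 78.8 in RES, 3255 ± 151 in SA, 1889.9 ± 136 in SA:ANH and 2072 ± 77.9 in NS, so ANH was the lowest of the 5 groups.

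Igfbp4, a binding protein of insulin-like growth factors, fell to 395, 409 and 418 CPM in ANH, against 610.5, 637 and 644 CPM in NS (-0.63 ± 0.04, adjusted p = 2.36e-15), and Necab2, a neuronal calcium-binding protein, to 125, 131 and 142 CPM in ANH, against 178, 190.3 and 203 CPM in NS (-0.54 ± 0.05, adjusted p = 7.1e-09). Necab2 was lower in ANH Input too (-0.37 ± 0.06, adjusted p = 0.000203), whereas Igfbp4 stood at -0.02 ± 0.04 there (adjusted p = 0.882). Among low genes, Filip1, a filamin-interacting protein, had 1.53, 3.31 and 5.53 CPM in ANH and 9.12, 11.9 and 17.2 CPM in NS (-1.75 ± 0.32, adjusted p = 0.000324). Zfp536, a zinc finger repressor of neuronal differentiation, had 1.51, 5.63 and 8.4 CPM in ANH and 7.58, 14.1 and 15.9 CPM in NS, with groups that overlapped (-1.25 ± 0.28). Ucp2, a carrier of the inner mitochondrial membrane (-0.89 ± 0.15), Plk5, a neuronal polo-like kinase (-0.90 ± 0.13), and Rasd1, a Ras-like protein induced by dexamethasone (-0.87 ± 0.19), fell too. Rasd1 was the 1 of these 5 low genes that was also lower in ANH Input (-0.72 ± 0.14, adjusted p = 0.00159).

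Among the largest rises outside the glial lists were 4 genes of moderate to low level with wide spread. Eml2, a microtubule-associated protein, had 39.3, 72.3 and 90.3 CPM in ANH and 11.8, 17.6 and 33.6 CPM in NS (1.82 ± 0.32, adjusted p = 0.000178). Zfp382, a zinc finger repressor, had 12.1, 14.5 and 19.4 CPM in ANH and 2.89, 4.63 and 7.63 CPM in NS (1.57 ± 0.26, adjusted p = 7.15e-05). Max, the partner of MYC, had 10.5, 14 and 20 CPM in ANH and 2.69, 5.62 and 8.3 CPM in NS (1.40 ± 0.27), and Emd, the nuclear envelope protein emerin, 33.6, 37.6 and 44 CPM in ANH and 10.5, 12.8 and 26.6 CPM in NS (1.34 ± 0.25). For each of these 4 genes the lowest ANH value exceeded the highest NS value. ANH was also above RES, SA and SA:ANH for all 4, with differences from 1.02 for Max against SA:ANH to 1.67 for Eml2 against RES.

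Respiratory chain transcripts encoded in the nucleus were slightly lower in ANH pulldown. Of 91 names listed 76 were in the table and all were tested. Of these 0 rose, 28 fell and 48 did not pass (median -0.14), where 3.02% of all genes rose and 4.37% fell. The names not found were all of ATP synthase genes, among them Atp5f1b, a newer symbol of Atp5b, which was tested. The list's sums overlapped, at 24420, 25270 and 26340 CPM in ANH IP and 25480, 28360 and 29130 CPM in NS IP. The count fell to 17 without ANH replicate 1 or NS replicate 3 and to 18 without NS replicate 5. Uqcrc1, a core subunit of complex III, had 599, 632 and 665 CPM in ANH and 735, 778 and 839 CPM in NS (-0.31 ± 0.04, adjusted p = 2.36e-06). Atp5b, the catalytic beta subunit of ATP synthase, had 2153, 2295 and 2354 CPM in ANH and 2390.4, 2554 and 2639.8 CPM in NS (-0.15 ± 0.03, adjusted p = 0.000243). Cox6c of cytochrome c oxidase (-0.32 ± 0.06) and Ndufa4 of the same complex (-0.33 ± 0.06) fell. The groups overlapped for Cox6c and were separate for the other 3. In Input 0 of 76 were higher and 4 lower, where 1.57% of all genes were higher and 1.05% lower.

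Of 15 mitochondrially encoded genes 3 were higher, 0 lower and 12 did not pass in ANH pulldown (3.02% of all genes were higher and 4.37% lower). Their median was 0.19, and it was 0.0928 without ANH replicate 5, 0.0095 without ANH replicate 6 and 0.0668 with limma voom. Their sum was 188.3, 229.9 and 276.6 CPM in ANH IP and 177.5, 198.5 and 234.0 CPM in NS IP, which overlap. The count of higher members was 0 without ANH replicate 5 or NS replicate 1, and 1 without ANH replicate 4 or 6 or NS replicate 4 or 5. Cytosolic ribosomal protein genes did not separate ANH from NS, with 0 of 78 higher and 1 lower (median -0.04). The 1 gene was Rpl31, with 49.5, 54 and 61.9 CPM in ANH and 56.8, 63 and 73.6 CPM in NS (-0.24 ± 0.08, adjusted p = 0.0471), and it was not called when any 1 of ANH replicates 1, 2, 5 and 6 or NS replicates 2 to 6 was left out (highest adjusted p = 0.145). Without NS replicate 1 the count was 4. Against the other groups the same genes stood apart, with 65 of 78 lower in ANH than in RES, 75 lower than in SA and 77 lower than in SA:ANH, and 0 higher in each. Over all genes 5.43%, 12.8% and 10.8% were lower in these comparisons.

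Transcripts tied to neuronal activity were mixed, with more falls than rises, as over all genes (3.02% rose and 4.37% fell). Of 17 rapid immediate early genes tested, 1 rose and 3 fell. Fos, the usual marker of recent activity, had 24.3, 26.2 and 37.2 CPM in ANH and 26, 27 and 29 CPM in NS (0.03 ± 0.11, adjusted p = 0.931), and its difference was -0.07 without ANH replicate 2, so no direction can be given. Ier5, an early gene of growth control, rose to 148, 158 and 167 CPM in ANH, against 112, 119.6 and 129.6 CPM in NS (0.38 ± 0.05, adjusted p = 2.8e-06), and was higher in ANH Input too (0.25 ± 0.04, adjusted p = 0.000418). Egr4, a zinc finger factor, fell (-0.33 ± 0.08, adjusted p = 0.0068), as did Fosl2, a Fos family member whose groups overlapped (-0.70 ± 0.18, adjusted p = 0.0113). Egr1 had 255, 258 and 279 CPM in ANH and 272, 289 and 324 CPM in NS (-0.17 ± 0.05, adjusted p = 0.0359), and it was not called without ANH replicate 2, 3, 4, 5 or 6 or NS replicate 1, 4, 5 or 6 (highest adjusted p = 0.125).

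Of 23 slower, activity-induced effector genes, 0 rose and 5 fell (median -0.14), beside 3.02% and 4.37% of all genes. Without NS replicate 1, 1 rose. Vgf, a secreted peptide precursor induced by neurotrophins, had 127, 131 and 152 CPM in ANH and 167, 177 and 190.3 CPM in NS (-0.41 ± 0.06, adjusted p = 2.41e-05). Inhba, a subunit of activin, had 16.8, 23.2 and 25.1 CPM in ANH and 29.5, 32.8 and 35 CPM in NS (-0.54 ± 0.10, adjusted p = 0.000589). ANH lay wholly below NS for both. Bdnf, brain-derived neurotrophic factor, had 67.1, 75.8 and 81.6 CPM in ANH and 77.2, 92.1 and 94.6 CPM in NS, with overlap (-0.25 ± 0.06, adjusted p = 0.00723). Vgf was lower in ANH Input as well (-0.25 ± 0.05, adjusted p = 0.00169), while Bdnf (-0.12 ± 0.09) and Inhba (-0.31 ± 0.20) did not pass there.

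Genes of the glucocorticoid and stress axis also split, with 2 of 19 tested higher and 4 lower, beside 3.02% and 4.37% of all genes. The receptors Crhr1, for corticotropin-releasing hormone, and Adcyap1r1, for the peptide PACAP, rose. Crhr1 had 28.5, 29.8 and 34 CPM in ANH and 19.7, 22.5 and 24.7 CPM in NS (0.45 ± 0.11, adjusted p = 0.00723), and Adcyap1r1 30.8, 34 and 37.4 CPM in ANH and 20.6, 25.4 and 27.2 CPM in NS (0.48 ± 0.12, adjusted p = 0.0103). Neither receptor's groups overlapped. Fkbp4, a co-chaperone of the glucocorticoid receptor, fell to 155, 167 and 187 CPM in ANH, against 194, 200.2 and 217 CPM in NS (-0.27 ± 0.05, adjusted p = 0.000389). Fkbp5, the co-chaperone that glucocorticoids induce, had 16.2, 19.3 and 27.5 CPM in ANH and 23.5, 28 and 31.5 CPM in NS (-0.46 ± 0.14, adjusted p = 0.035). It was not called without ANH replicate 1, 3, 5 or 6 or NS replicate 1, 2, 3 or 4 (highest adjusted p = 0.100). Zbtb16, a transcription factor induced by glucocorticoids, fell (-0.35 ± 0.08, adjusted p = 0.00345). In Input Fkbp5 stood at 0.07 ± 0.09 (adjusted p = 0.795) and Zbtb16 at -0.12 ± 0.09 (adjusted p = 0.55).

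Chaperones of the cytosol and of the endoplasmic reticulum were lower where they were called. Of 19 heat shock and chaperone genes 0 rose and 4 fell, and of 20 genes of the unfolded protein response 0 rose and 2 fell, with 1 rising without NS replicate 2. For these and the counts below, the shares over all genes were 3.02% higher and 4.37% lower. Hspa8, the constitutive Hsc70, had 1604, 1660.5 and 1739 CPM in ANH and 1881, 2016 and 2047 CPM in NS (-0.26 ± 0.03, adjusted p = 2.79e-06). Hspa5, known as BiP, fell with overlapping groups (-0.24 ± 0.04), as did the disulfide isomerase Pdia4 (-0.31 ± 0.08), and Hsp90ab1, a cytosolic chaperone, fell with separate ones (-0.13 ± 0.03). Of 50 chromatin genes 0 rose and 7 fell, and 4 fell without ANH replicate 3 or 6 or NS replicate 1 or 4. Smarca4, the ATPase of the BAF remodeler, had 189, 191 and 204 CPM in ANH and 219, 238 and 249 CPM in NS (-0.29 ± 0.04, adjusted p = 2.18e-05), and the remodeler Chd2 (-0.55 ± 0.10) and the methyltransferase Kmt2d (-0.48 ± 0.10) fell. Dbp, a clock output factor, rose by 0.38 ± 0.05 (adjusted p = 7.28e-07), the 1 gene called of 17 clock genes. Of 24 cholesterol synthesis genes 3 rose and 1 fell. The imprinted noncoding RNA Meg3 fell in the pulldown (-0.21 ± 0.05) and was higher in ANH Input (0.20 ± 0.04), with adjusted p = 1.3e-05 for the difference between fractions.

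Most synaptic genes did not pass. Of 18 genes of AMPA receptors and their auxiliary proteins 3 rose, 2 fell and 13 did not pass (3.02% of all genes rose and 4.37% fell). Gria1, the GluA1 subunit, had 426, 461 and 488 CPM in ANH and 523, 555 and 609 CPM in NS (-0.29 ± 0.04, adjusted p = 1.89e-05). Cacng2, stargazin, which carries AMPA receptors to the synapse, had 21.5, 24.9 and 27.6 CPM in ANH and 11.6, 15.3 and 17 CPM in NS (0.73 ± 0.11, adjusted p = 4.48e-05). Both pairs of groups were separate, one lower and the other higher in ANH. Of 21 NMDA receptor and scaffold genes 2 rose, 5 fell and 14 did not pass. Dlg4, the scaffold PSD-95, had 65.2, 73.7 and 97.9 CPM in ANH and 52.9, 54.3 and 68 CPM in NS (0.43 ± 0.10, adjusted p = 0.00319). Shank1, a scaffold below it, had 255, 276 and 301 CPM in ANH and 358, 371 and 433 CPM in NS (-0.46 ± 0.06, adjusted p = 4.07e-07), and was lower in Input too (-0.37 ± 0.06). The groups overlapped for Dlg4 and were separate for Shank1. The NMDA subunit Grin2b fell with overlapping groups (-0.23 ± 0.06).

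Of the 7 metabotropic glutamate receptors, Grm3 rose by 0.42 ± 0.08 (adjusted p = 0.00026) and Grm4 fell (-0.73 ± 0.16, adjusted p = 0.00307). Among 46 potassium channel genes 2 rose and 5 fell (3.02% and 4.37% of all genes), with 1 rising without ANH replicate 6 or NS replicate 3. The share that rose is close to that over all genes. The T-type calcium channel Cacna1h fell with overlapping groups (-0.48 ± 0.09).

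Of 43 genes of vesicle release 5 rose, 5 fell and 33 did not pass (3.02% of all genes rose and 4.37% fell). Syt1, the calcium sensor of fast release, had 1243, 1281 and 1334 CPM in ANH and 1032, 1105 and 1149 CPM in NS (0.22 ± 0.03, adjusted p = 4.9e-06), and Cplx2, a complexin that clamps release, 294, 308 and 350.4 CPM in ANH and 359.8, 365 and 376 CPM in NS (-0.23 ± 0.05, adjusted p = 0.00219). Among peptides and secreted factors, 3 of 21 rose and 3 fell (3.02% and 4.37% of all genes). Cck, cholecystokinin, had 1016, 1064 and 1134 CPM in ANH and 818, 935 and 980.2 CPM in NS (0.21 ± 0.04, adjusted p = 0.00132). Chgb, the granule protein chromogranin B, had 787, 835 and 913 CPM in ANH and 941, 1018 and 1055 CPM in NS (-0.27 ± 0.04, adjusted p = 2.6e-05). In Input 0 of 22 peptide genes were higher and 6 lower, where 1.57% of all genes were higher and 1.05% lower.

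**Figure D5:**
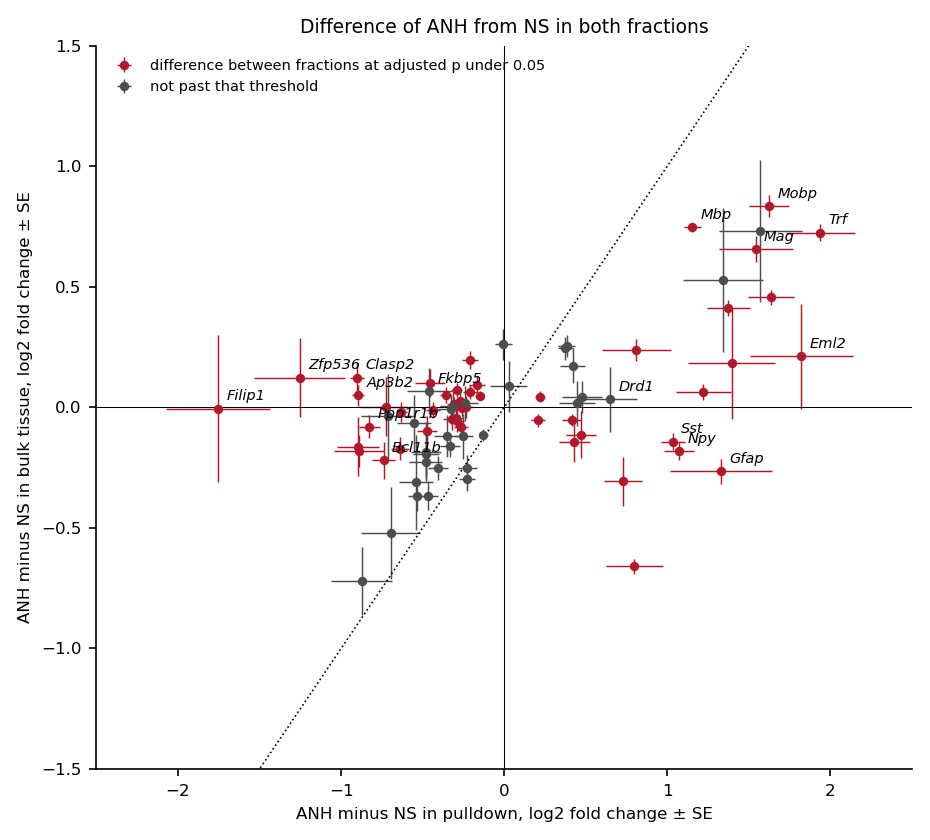
Log2 fold change ± SE of ANH minus NS in pulldown (x axis) and in bulk tissue (y axis) for the 79 genes described, red where the 2 differences were unlike at an adjusted p under 0.05. Myelin genes lie at the upper right, below the dotted line of equal differences, and Sst, Npy and Gfap lie right of 0 on the x axis and below 0 on the y axis.

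Set beside bulk tissue, the pulldown showed more differences between ANH and NS. In Input 476 of 18170 genes differed, 285 higher (1.57%) and 191 lower (1.05%). The difference was unlike in the fractions for 685 of 18937 genes, 335 with a higher value in the pulldown (1.77%) and 350 with a lower (1.85%). Of the 79 genes described, 48 were among them, a count raised by how these genes were chosen. Against the other pulldown groups, ANH differed from RES in 1535 of 16670 genes (9.21%), from SA in 3830 (23%) and from SA:ANH in 2977 (17.9%). From the same NS libraries, RES differed in 727 genes (4.36%, with 2.25% higher and 2.11% lower), SA in 2766 (16.6%, with 9.39% higher and 7.2% lower) and SA:ANH in 3288 (19.7%, with 11.3% higher and 8.45% lower). These comparisons with NS share its 6 libraries with the comparison of ANH, so they are given side by side only.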

How the data were processed

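RNA-seq of 60 libraries from mPFC was deposited by the authors as 1 table of 55414 genes holding expected counts, 88.4% of them whole numbers within 0.000001. Per the submitters' processing notes, Trimmomatic 0.32, TopHat2 2.0.13, Bowtie2 2.2.3 and mm10 were used, and the counting tool is not named in these sources. Positions are those of the deposited table. Few of its gene starts (0.749% of 38872 matched genes) equal those of GRCm38, so their build is not given here. Per the labels' protocols, cDNA was made with SMART-Seq v4, which amplifies small inputs.

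Counts were rounded to whole numbers. Low genes were removed with filterByExpr (minimum count 10), libraries were scaled by TMM and genes were tested with the quasi-likelihood test of edgeR 4.0.16 (R 4.3.3) on all 30 IP libraries in 5 groups, on the 30 Input libraries, and on all 60 for the difference between fractions. P-values were adjusted by Benjamini-Hochberg at 0.05. Alternatives were RLE scaling, DESeq2 1.42.0, voom with quality weights (limma 3.58.1), no filter, only the 12 libraries compared, a replicate block and each library left out. The steps were tested on simulated data. Within ANH IP and within NS IP no library repeated another, and other pairs were not checked. Totals of 19078928 counts or more leave genes under a few CPM with wide intervals, and no molecular identifiers are named.

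Gene lists and the members described were chosen with earlier results of these data known, and lists support nothing by themselves. A rule named 210 genes: the 12 largest rises and 12 largest falls in the pulldown with a mean of at least 10 CPM, the 5 smallest p-values of each list and of the other comparisons, and Rpl10a, Fos, Fkbp5, Bdnf and Mbp. Of these 79 are described, and some others are not reported here. They were picked after their values were seen, and genes whose call hung on single libraries were mostly left out. Promoter sequences came from RefSeq (GRCm38.p6) and were searched on both strands.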

Additional observations from a re-analysis of the deposited data

Results flagged for a closer look

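The highest or lowest of 6 libraries lay far from the nearest of the others, against the spread of its group, for 9 of 158 gene and group pairs (5.7%). Chance flags about 1 in 20 groups. High libraries were NS replicate 1 for Emd (26.6 CPM) and Dlg4 (68.0 CPM), ANH replicate 1 for Egr1 (279 CPM) and Vgf (152 CPM), and ANH replicate 2 for Fos (37.2 CPM). Low libraries were ANH replicate 1 for Npy (51.8 CPM), ANH replicate 2 for Zbtb16 (51.5 CPM), NS replicate 3 for Bdnf (77.2 CPM) and NS replicate 6 for Hspa8 (1881 CPM).

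The difference of ANH from NS was not the same in pulldown as in bulk tissue for 48 of the 79 genes described. The test was edgeR's, of the difference between fractions, with an adjusted p under 0.05. Over all genes 685 of 18937 (3.62%) passed it. The genes described were chosen largely by their pulldown differences, and some by this test, which raises the count of 48. The log2 values that follow are the IP difference minus the Input difference. Among glial genes it was 0.42 for Mbp, 0.80 for Mobp, 0.88 for Mag, 1.22 for Trf, 1.19 for Car2, 0.97 for Plekhb1, 1.16 for Apod, 1.61 for Gfap, 0.48 for Apoe, 0.58 for Olig1 and 1.47 for Ptgds. Among neuron type genes it was 1.19 for Sst, 1.26 for Npy, 0.59 for Cnr1, -0.40 for Lamp5, -0.46 for Nefm, -0.36 for Nefl, -0.51 for Bcl11b, -0.42 for Crym, -0.37 for Pou3f1, -0.55 for Hs3st4, -0.26 for Camk2b and -0.74 for Ppp1r1b. Among genes chosen for the size of their change it was 1.62 for Eml2, 1.22 for Max, -1.74 for Filip1, -1.37 for Zfp536, -1.02 for Clasp2, -0.94 for Ap3b2, -0.73 for Plk5, -0.70 for Ucp2 and -0.60 for Igfbp4. For synaptic genes it was -0.24 for Gria1, 1.04 for Cacng2, 0.58 for Dlg4, -0.72 for Grm4, 0.19 for Syt1, -0.17 for Chgb and 0.27 for Cck. The remaining genes were Egr1 at -0.25, Fkbp4 at -0.29, Hspa8 at -0.25, Hspa5 at -0.23, Uqcrc1 at -0.31, Cox6c at -0.26, Atp5b at -0.19, Meg3 at -0.40 and Smarca4 at -0.22.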

How the results depend on the processing

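The count of genes that differed in the pulldown, 1233, was 1233 with RLE, 969 with no filter, 1473 with voom, 1606 with DESeq2 and 1221 with the 12 libraries alone, and 986 to 1173 with each library left out. No gene called in both fits changed sign. In Input, DESeq2 called 728 genes, 325 of them lower, and voom called 299 lower, against 476 and 191. Of the 79 genes described, 77 were called and 74 of these kept their call in every alternative, a share raised by leaving out less stable genes; Egr1, Fkbp5 and Rpl31 lost it in some. Fos and Rpl10a, neither called, changed sign. With each library left out, Fos ranged from -0.0672 without ANH replicate 2 to 0.0669 without ANH replicate 6, and Rpl10a from -0.0225 without ANH replicate 4 to 0.0082 without NS replicate 4; the cause was not tested. Libraries with the same replicate number correlated at -0.014 to 0.022 over all genes. Such correlations cannot tell whether replicate numbers pair the samples, since low genes add noise. From replicate 1 to replicate 6 the mitochondrial share went from 0.02241% to 0.02835% in ANH IP and from 0.01766% to 0.02367% in NS IP. In ANH Input it went from 1.562% to 2.111%, and in NS Input from 1.868% to 1.802%. The fit with the replicate block called 1369 genes, 1189 of them shared. Genes under about 10 CPM had the widest spread, which limits what these depths can show.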
